A study of Mus musculus with 6 samples.

Results

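The C-type lectins of the macrophage surface described here are 9 genes, Clec4e, Clec4d, Clec4n, Clec7a, Clec5a, Clec12a, Clec10a, Mrc1 and Mgl2, among the 23282 gene symbols of the deposited table. They were chosen by symbol, and where a symbol has several transcripts the one with the most reads on average was taken. A filter on low values, a mean of at least 10 reads over the 6 libraries, left 7995 genes to be tested and 7 of the 9 lectins. Clec10a and Mgl2 did not reach it. Each library came from macrophages that female C57BL/6 mice had recruited to the peritoneum after thioglycollate. The cells of every library received an siRNA for 48 h, either against Smyd5 (siSmyd5), against Phf2 (siPhf2) or a control (siCtl). They then received the lipid A known as KLA (Kdo2-lipid A, a ligand of the receptor TLR4), at 100 ng/ml for 4 h, or vehicle. Each of the 6 combinations is a single library without a replicate, and nothing in the labels tells whether separate mice or cultures were used. The p-values therefore measure only the spread between these libraries.

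C-type lectins recognise carbohydrates, lipids and damaged cells through a shared fold, and on macrophages many of them act as receptors for fungi and mycobacteria. Clec4e (Mincle) binds mycobacterial cord factor, Clec4d (MCL) is its partner in the same receptor complex, and Clec4n (Dectin-2) binds fungal mannans; all 3 pass their signal through the adaptor Fcer1g to the kinase Syk. Clec7a (Dectin-1) binds fungal beta-glucan and recruits Syk through its own tail, Clec5a (MDL-1) signals through the adaptor Tyrobp, and Clec12a (MICL) carries an inhibitory tail that recruits phosphatases. Mrc1, the mannose receptor CD206, takes up glycoproteins and is a common marker of alternatively activated macrophages, as are Clec10a and Mgl2, which bind galactose-type sugars.

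The libraries differed in depth. The siPhf2-labelled libraries held 420149 reads with KLA and 577054 with vehicle, and Rn45s, the precursor of ribosomal RNA, made up 71.6% and 66.7% of them (0.621% to 1.20% in the remaining libraries). That leaves 119144 and 192420 reads of other genes, against 910906 to 1419165 in the siSmyd5 and siCtl libraries. The reads of the siCtl columns come out whole only with the totals printed for siPhf2, and the reverse, so either the names or the totals of these columns were exchanged. Libraries are named here by their labels, and some results with the names exchanged are given below. Smyd5 itself had 9 reads in the siSmyd5-labelled vehicle library against 44 in siCtl (ratio of scaled levels 0.330), and 20 against 29 with KLA (1.10), so the KLA library does not show the fall that its label implies. Its averaged difference was log2 −0.64 (adjusted p = 0.384, edgeR). Phf2 was called lower by size in that KLA library, with 34 reads against 120 in siCtl (0.454, 95% interval 0.301 to 0.669). Phf2 had 29 reads in the siPhf2-labelled vehicle library against 113 in siCtl (2.54) and 8 against 120 with KLA (1.08), so its level goes against the siPhf2 label. Of 10 macrophage markers in the table, Cd163 had 0 reads. The summed level of the 10 was 4273 to 5516 CPM with KLA and 3768 to 5031 with vehicle. CPM here are reads scaled so that the bulk of genes, and not the library totals, are equal between libraries. Of the 8 dendritic cell genes listed, Flt3, Cd209a and Btla had 0 reads in all 6 libraries. Itgax had 78 to 363 reads, and Zbtb46 had 13 (siSmyd5), 2 (siPhf2) and 20 (siCtl) with KLA. Ccr7, Xcr1 and H2-Oa had 0 to 11. Fibroblast markers summed to 317 to 852 CPM, the dendritic cell list to 126 to 577 and neutrophil markers to 0 to 116. Summed levels of the remaining lists were 0 to 28.8 for mast cells, 0 to 40.6 for resident peritoneal macrophages, 0 to 14.2 for monocytes, 5.29 to 16.3 for B cells, 0 to 6.39 for T and NK cells, 0 to 5.68 for eosinophils, and 7.82 to 28.8 for mesothelial cells.

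Clec4e and Clec4d lie side by side and Clec12a and Clec7a share another lectin cluster, and the results below turn on how the members of these 2 pairs differ, so their upstream sequences are shown. Of the 9 genes, 7 had an entry in the RefSeq promoter table (build GRCm38.p6), and the 250 bases before the annotated start are printed 5′ to 3′ on the strand of the gene. They lie at chr6:123289872-123290121 (minus strand) for Clec4e, chr6:123261857-123262106 (plus strand) for Clec4d, chr6:129349994-129350243 (plus strand) for Clec12a and chr6:129472780-129473029 (minus strand, the first of 2 annotated starts) for Clec7a. Capitals mark matches on either strand to GAGGAA, the core bound by the myeloid factor PU.1, and to TTGCNNAA, a pattern bound by C/EBP factors.
Clec4e: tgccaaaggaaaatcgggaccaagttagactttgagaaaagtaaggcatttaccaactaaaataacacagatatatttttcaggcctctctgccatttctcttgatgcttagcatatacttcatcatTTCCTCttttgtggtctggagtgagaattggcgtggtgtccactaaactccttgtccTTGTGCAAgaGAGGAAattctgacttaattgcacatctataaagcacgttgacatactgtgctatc
Clec4d: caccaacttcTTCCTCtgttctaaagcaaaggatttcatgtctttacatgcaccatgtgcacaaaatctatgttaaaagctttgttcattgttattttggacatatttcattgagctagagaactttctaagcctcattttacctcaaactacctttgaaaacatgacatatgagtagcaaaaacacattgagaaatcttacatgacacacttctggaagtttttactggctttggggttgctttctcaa
Clec12a: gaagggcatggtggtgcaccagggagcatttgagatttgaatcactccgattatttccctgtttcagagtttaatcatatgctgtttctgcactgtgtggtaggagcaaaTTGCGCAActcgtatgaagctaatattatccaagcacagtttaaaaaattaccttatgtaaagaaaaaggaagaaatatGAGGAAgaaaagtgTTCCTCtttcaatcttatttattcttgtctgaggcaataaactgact
Clec7a: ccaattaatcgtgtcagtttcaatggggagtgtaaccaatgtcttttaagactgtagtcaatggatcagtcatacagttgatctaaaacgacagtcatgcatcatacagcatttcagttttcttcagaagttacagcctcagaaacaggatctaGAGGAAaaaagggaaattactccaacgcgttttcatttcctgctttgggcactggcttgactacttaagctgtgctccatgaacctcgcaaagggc
GAGGAA was found in the upstream sequence of all 7 lectins that have one and in 23.3% of 32851 promoters of the table. TTGCNNAA was found in Clec4e, at position −66 from the start, and in Clec12a, at −140, and in 9.56% of all promoters. The AP-1 pattern TGANTCA was found in Clec12a alone among the 7 (not capitalised; 6.75% of all promoters), and neither the NF-kB consensus (3.90%) nor the interferon-stimulated response element (2.98%) was found in any of them. No 2 of the matches overlap each other. These are matches of letters in a fixed window and show no binding.

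Per kilobase of transcript, Clec4d had the highest level of the 9 in every library. CPM were computed with TMM factors, which set the bulk of genes equal between libraries and leave Rn45s little weight. For comparisons between genes they are divided by the tabulated transcript length. In the KLA libraries Clec4d stood at 361 CPM per kilobase (siSmyd5), 206 (siPhf2) and 269 (siCtl), against 363, 241 and 205 in the vehicle libraries. Clec4e was 2nd in all 3 KLA libraries, at 163 to 164, against 5th or 6th in the vehicle libraries, at 12.9 (siSmyd5), 4.85 (siPhf2) and 9.63 (siCtl). Mrc1 and Clec7a stood close together, at 45.0 to 77.1 for Mrc1 and 38.1 to 73.8 for Clec7a with KLA, and at 50.0 to 60.8 and 68.0 to 72.1 with vehicle. Their counting intervals did not separate in any KLA library, whereas in the siSmyd5 and siCtl vehicle libraries Clec7a was above Mrc1 per kilobase by 1.30 (95% interval 1.10 to 1.52) and 1.19 (1.05 to 1.34). Clec12a followed at 54.8 (siSmyd5), 16.3 (siPhf2) and 32.8 (siCtl) with KLA, against 43.5, 1.83 and 26.8 with vehicle. In the siSmyd5 and siCtl libraries Clec4n was below Clec12a, and Clec5a, at or below 4.42 in every library, was below Clec4n. In the siPhf2-labelled KLA library Clec4d and Clec4e did not separate either, at a ratio of 1.26 (0.813 to 1.93), and in the siPhf2-labelled vehicle library no order below Mrc1 could be read, since the remaining members had 1 to 3 reads or none. The lengths cover whole transcripts while the column headers name coding sequence, and whether this changes the order was not tested.

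The members tied to alternative activation other than Mrc1 were scarcely detected. Clec10a had 6 reads with KLA in the siSmyd5-labelled library, 0 in siPhf2 and 6 in siCtl, against 3, 0 and 2 with vehicle. Mgl2 had a single read in the whole series, in the siCtl-labelled KLA library. A count of 0 allows a level of up to 1.98 CPM in the siSmyd5-labelled vehicle library, 2.13 in the siSmyd5-labelled KLA library and 1.23 in the siCtl-labelled vehicle library for Mgl2, but up to 12.2 and 21.6 in the siPhf2-labelled vehicle and KLA libraries. The 2 transcripts share sequence, 23.0% of the 36-base windows of Clec10a being found in Mgl2 or another gene, so that reads could be split or dropped between them. Mrc1 was therefore the sole well-measured member of this kind, with 516 reads (siSmyd5), 33 (siPhf2) and 919 (siCtl) with KLA, against 442, 65 and 784 with vehicle.

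**Figure D1:**
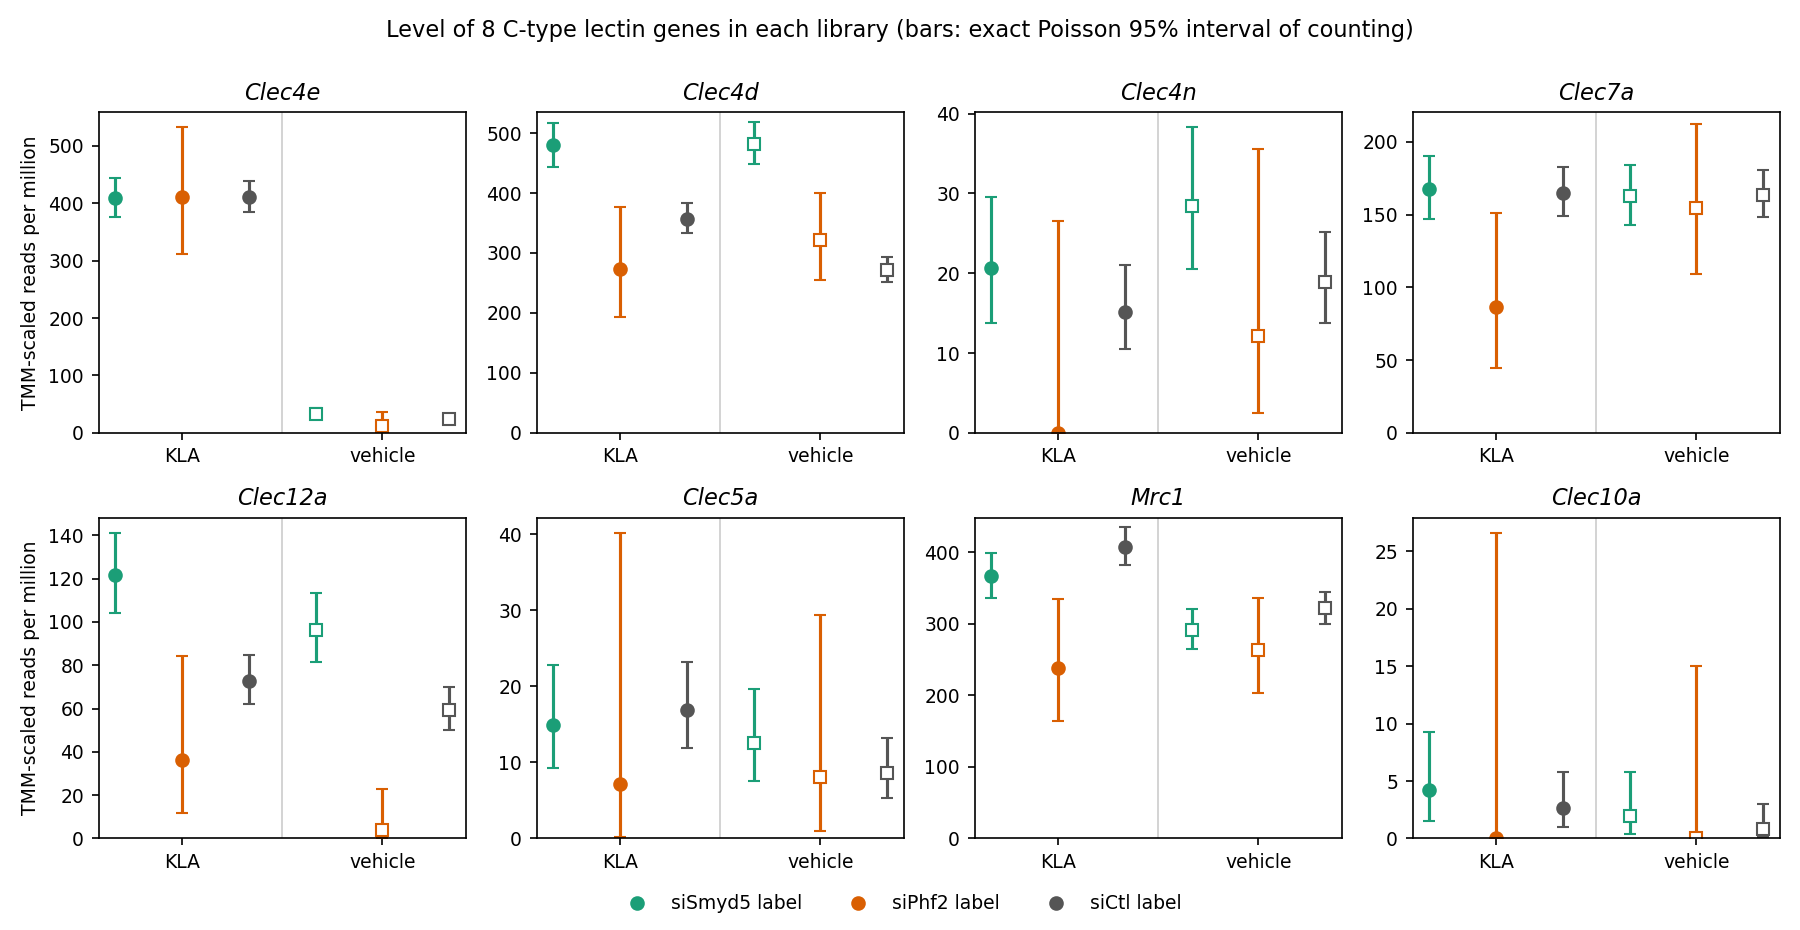
Level of 8 members in each library, in TMM-scaled CPM on linear axes that start at 0; filled circles are KLA libraries, open squares vehicle libraries, colours give the siRNA label, and bars are exact Poisson 95% intervals of counting. Clec4e stands near 410 in all 3 KLA libraries and at or below 32.4 in the vehicle libraries, whereas the KLA and vehicle levels of the other members are close together or overlap.

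Clec4e, the receptor for cord factor, was the sole member whose averaged KLA effect passed the test. It had 576 reads with KLA in the siSmyd5-labelled library, 57 in siPhf2 and 927 in siCtl, against 49, 3 and 59 with vehicle. As levels these are 409, 411 and 411 CPM with KLA, against 32.4, 12.2 and 24.2 with vehicle. The groups did not overlap, and on this scale the 3 KLA levels were nearly equal. For the siPhf2-labelled library that equality depends on the scaling, as given below for its ratio over siCtl. Averaged over the siRNAs, Clec4e was 15.9-fold higher with KLA (log2 3.99 ± 0.24 SE, adjusted p = 2.18e-10, edgeR's quasi-likelihood test with Benjamini-Hochberg adjustment, n = 3 libraries per agent), the 75th largest of 7995 averaged KLA effects, and it was higher in 3 of 3 arms. By size, meaning a ratio of at least log2 1 in either direction with 2 reads added and an interval that excludes equality, it was called higher in each arm, as were 8.74% of genes under siSmyd5, 8.31% under siPhf2 and 7.18% under siCtl. Over all genes tested, 11.2% were higher and 4.6% lower with KLA by the same test. Set against the genes nearest in GC content its averaged effect was log2 3.84, and against those nearest in length 4.01.

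The size of the Clec4e response was read in each arm from 1 library against 1, with counting intervals only. The ratio of KLA over vehicle was 12.6 (95% interval 9.43 to 17.3) under the siSmyd5 label, 33.7 (10.97 to 168) under the siPhf2 label, where vehicle held 3 reads, and 17.0 (13.1 to 22.5) under the siCtl label. The 3 intervals overlap, and the difference between arms has no test in this design. With KLA alone the ratio was 0.995 (0.895 to 1.11) for siSmyd5 over siCtl and 0.999 (0.751 to 1.31) for siPhf2 over siCtl. The ratio of Clec4e in siPhf2 over siCtl with KLA, log2 0.00 here, moved to log2 1.02 against genes of like GC content, to −0.45 with totals without Rn45s and to −2.24 with library totals. With vehicle the ratios were 1.34 (0.897 to 1.99) for siSmyd5 over siCtl and 0.504 (0.101 to 1.55) for siPhf2 over siCtl.

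Measured inside each library against its neighbour Clec4d, which needs no scaling between libraries, Clec4e had 0.853 reads per Clec4d read with KLA under the siSmyd5 label, 1.5 under siPhf2 and 1.15 under siCtl. With vehicle it had 0.0671, 0.0380 and 0.0890. Of the reads of all 9 members, Clec4e held 25.8% (siSmyd5), 39.0% (siPhf2) and 28.4% (siCtl) with KLA, against 2.92%, 1.57% and 2.78% with vehicle. Bulk RNA does not tell more RNA per cell from more cells of a type. The summed neutrophil markers, genes of a cell type also known to express several of these lectins, were 90.9 CPM (siSmyd5), 0 (siPhf2) and 98.5 (siCtl) with KLA, against 116, 32.5 and 99.3 with vehicle, mostly Mmp8 in the siSmyd5 and siCtl libraries. The dendritic cell list, most of it Itgax, summed to 139 (siSmyd5), 577 (siPhf2) and 172 (siCtl) with KLA, against 126, 427 and 132 with vehicle. Among its sparse members Zbtb46 had 13, 2 and 20 reads with KLA, against 1, 0 and 1 with vehicle, whereas Ccr7 had 1, 0 and 4 with KLA, against 4, 0 and 11 with vehicle. The part of these cell types in the result was not tested.

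**Figure D2:**
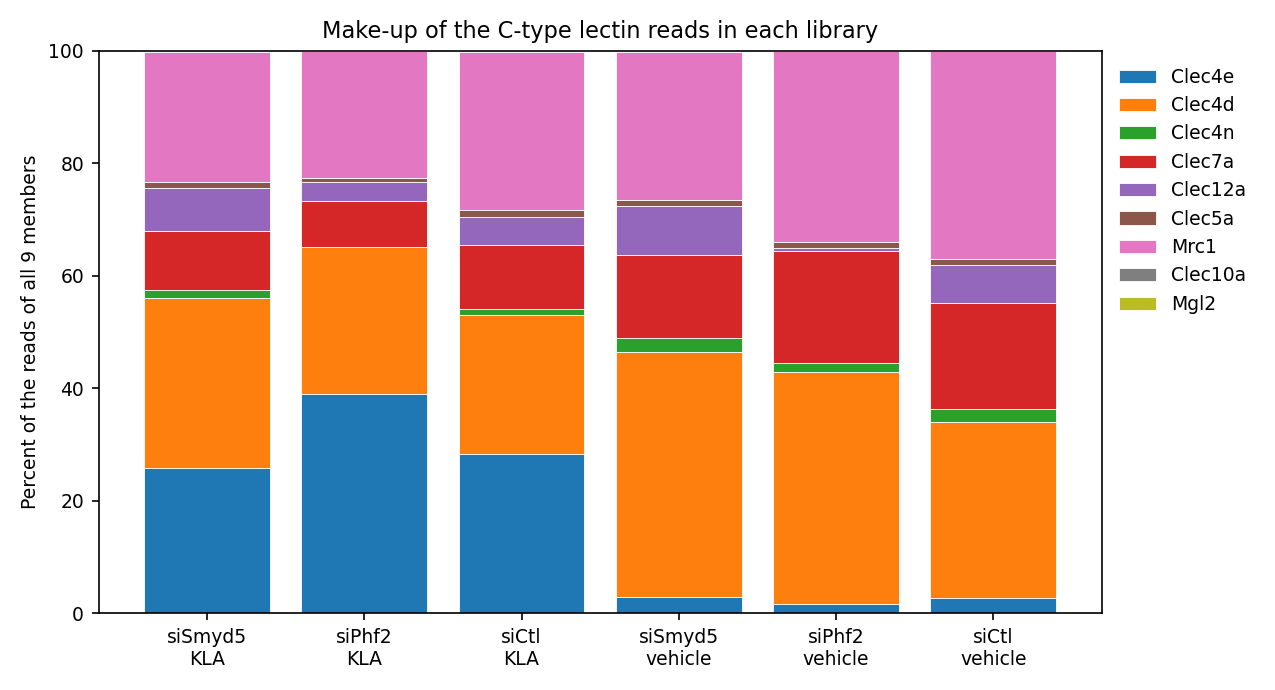
Percent of the reads of all 9 members that fell on each member, per library, with the KLA libraries on the left. The Clec4e band takes 25.8% to 39.0% of the reads with KLA and 1.57% to 2.92% with vehicle, while Clec4d and Mrc1 make up most of the rest in every library.

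The partner of Clec4e did not follow it. Clec4d had 675 reads (siSmyd5), 38 (siPhf2) and 805 (siCtl) with KLA, against 730, 79 and 663 with vehicle. As levels these are 480, 274 and 357 CPM with KLA, against 482, 321 and 272 with vehicle, and the groups overlap. The averaged effect was log2 0.10 ± 0.20 SE (adjusted p = 0.821, edgeR). Within arms the ratio was 0.994 (0.894 to 1.11) under siSmyd5, 0.854 (0.564 to 1.27) under siPhf2 and 1.31 (1.18 to 1.46) under siCtl. The siCtl ratio, log2 0.39 with 2 reads added, ran from 0.11 to 0.44 over 8 settings of scaling, reads added and correction for length or GC content.

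Clec4n, the mannan receptor, had the lowest averaged KLA effect of the 7 members tested. It had 29 reads (siSmyd5), 0 (siPhf2) and 34 (siCtl) with KLA, against 43, 3 and 46 with vehicle. The KLA level was below the vehicle level under siSmyd5 and siCtl. Under siPhf2 no direction could be read from 0 against 3 reads, with a ratio interval of 0 to 4.29. The averaged effect, log2 −0.43 ± 0.30 SE, did not pass (adjusted p = 0.394, edgeR). The ratios were 0.725 (0.437 to 1.19) under siSmyd5 and 0.799 (0.498 to 1.27) under siCtl, so both a fall and a small rise lie within the counting error.

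Clec7a, the beta-glucan receptor, had nearly equal levels with and without KLA in the 2 deeper arms. It stood at 168 CPM (siSmyd5) and 165 (siCtl) with KLA, against 163 and 164 with vehicle, and the ratios were 1.03 (0.859 to 1.24) and 1.01 (0.873 to 1.16). Under siPhf2 it stood at 86.5 with KLA, from 12 reads, against 154 with vehicle, from 38 reads, a ratio of 0.560 (0.267 to 1.10). Its averaged effect was log2 −0.09 ± 0.20 SE (adjusted p = 0.832, edgeR).

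Clec5a and Clec12a had higher levels with KLA in most arms, below the threshold. Clec5a, the Tyrobp-coupled receptor, had 21 reads (siSmyd5), 1 (siPhf2) and 38 (siCtl) with KLA, against 19, 2 and 21 with vehicle. Its averaged effect was log2 0.63 ± 0.35 SE (adjusted p = 0.269, edgeR), and under siCtl its ratio was 1.96 (1.12 to 3.51). Clec12a, the inhibitory receptor, had 171, 5 and 164 reads with KLA, against 146, 1 and 145 with vehicle. Its averaged effect was log2 0.37 ± 0.21 SE (adjusted p = 0.277, edgeR), with ratios of 1.26 (1.004 to 1.58) under siSmyd5 and 1.22 (0.972 to 1.54) under siCtl.

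Mrc1, the mannose receptor, stood at 367 CPM (siSmyd5), 238 (siPhf2) and 408 (siCtl) with KLA, against 292, 264 and 322 with vehicle. The averaged effect was log2 0.23 ± 0.20 SE and did not pass (adjusted p = 0.517, edgeR). It passed once both siPhf2-labelled libraries were left out, at log2 0.31 ± 0.10 SE (adjusted p = 0.0131). That fit called 1290 genes higher and 822 lower with KLA, against 893 and 368 in the reported fit. Leaving out either siPhf2-labelled library alone gave log2 0.34 for Mrc1. A single siPhf2-labelled library is fitted exactly by its own siRNA term. These fits therefore read KLA from the same siSmyd5 and siCtl libraries and are not separate checks. The ratio was 1.26 (1.10 to 1.43) under siSmyd5, 0.901 (0.574 to 1.39) under siPhf2 and 1.27 (1.15 to 1.40) under siCtl. Over 8 settings of scaling, reads added and correction for length or GC content, the siCtl ratio ran from log2 0.16 to 0.34. The siSmyd5 ratio ran from 0.17 to 0.33 and the siPhf2 ratio from −0.50 to −0.004. With library totals the averaged effect was log2 0.03. Over the 7 members that passed the filter the median averaged KLA effect was log2 0.23, against −0.03 over all genes tested.

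**Figure D3:**
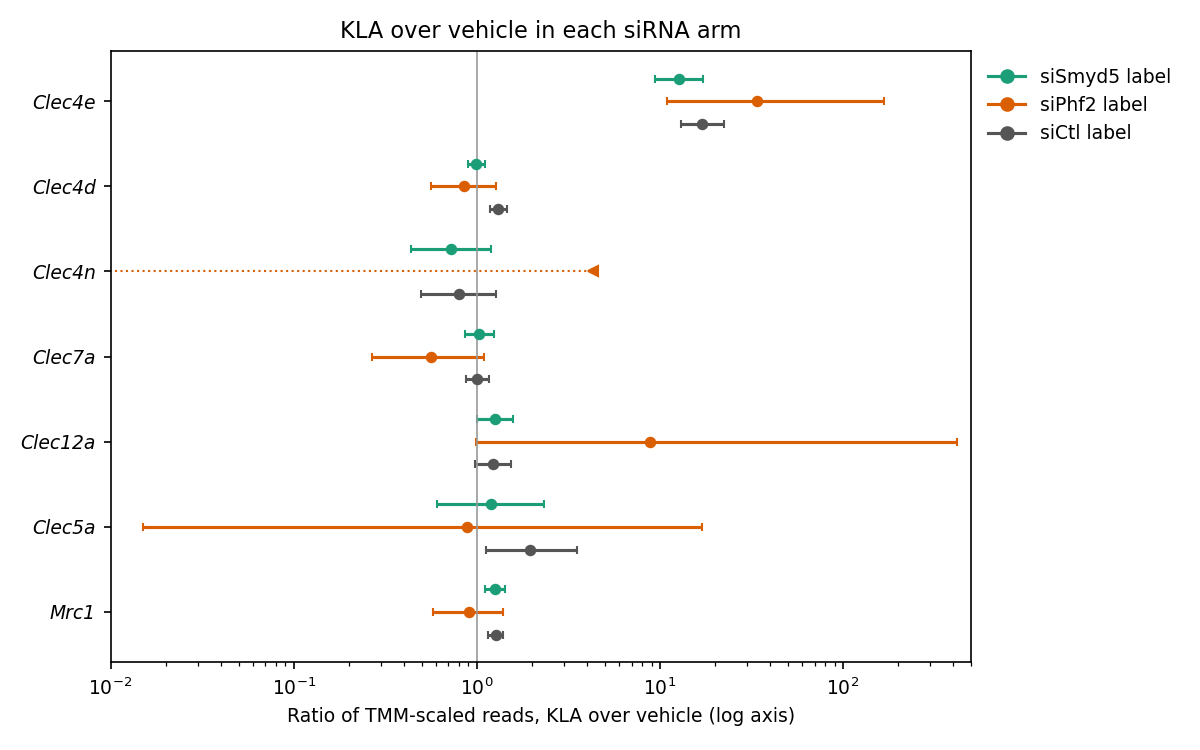
Ratio of the KLA level over the vehicle level for 7 members in each siRNA arm, on a log axis; points are ratios of 1 library over 1, bars exact conditional Poisson 95% intervals of counting, and the dotted line with an arrowhead marks an upper limit where KLA had 0 reads. Clec4e lies at 12.6, 33.7 and 17.0, and the other intervals reach or lie near 1.

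Under the siSmyd5 label Clec12a and Clec4d were higher than in siCtl with both agents, and Clec12a alone passed the averaged test in the reported fit. Smyd5 encodes a histone H4 methyltransferase, and the comparison asks whether the level of each lectin differed with the siRNA against it. Clec12a stood at 122 CPM (171 reads) in the siSmyd5-labelled KLA library against 72.8 (164 reads) in siCtl, and at 96.5 (146 reads) in the siSmyd5-labelled vehicle library against 59.5 (145 reads) in siCtl. Its ratio over siCtl was 1.67 (1.34 to 2.08) with KLA and 1.62 (1.28 to 2.06) with vehicle. Averaged over the agents it rose by log2 0.72 ± 0.21 SE and just passed (adjusted p = 0.0483, edgeR, n = 2 libraries per siRNA), and it was higher under both agents. By this test 2.74% of genes were higher and 3.65% lower in siSmyd5, so 1 of 7 members is read against that background. It passed in 7 of 18 settings, counting the reported one. These are not separate checks. The fits without either or both siPhf2-labelled libraries read the effect from the same siSmyd5 and siCtl libraries, and exchanging the names makes a different contrast. Clec12a did not pass with DESeq2's Wald test (adjusted p = 0.928), limma-voom (0.158), limma on log2 values (0.806), scaling by library total with or without Rn45s (0.139 and 0.0792), a minimum mean of 50 reads (0.0975) or the longest transcript (0.0536). Nor did it pass without the siSmyd5-labelled vehicle or KLA library (log2 0.54 and 0.87) or without the siCtl-labelled vehicle or KLA library (0.91 and 0.54). Without both siPhf2-labelled libraries it passed at log2 0.69 (adjusted p = 1.87e-04), in a fit that called 2198 genes against 511 in the reported one.

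Clec4d did not pass the averaged test. It stood at 480 CPM against 357 in siCtl with KLA, a ratio of 1.34 (1.21 to 1.49), and at 482 against 272 with vehicle, a ratio of 1.77 (1.60 to 1.97). The averaged effect was log2 0.62 ± 0.22 SE (adjusted p = 0.0972, edgeR), and without both siPhf2-labelled libraries it was 0.59 ± 0.10 SE (adjusted p = 7.55e-06), the lower adjusted p of the 2 genes in that fit. That fit called 1061 genes higher and 1137 lower, against 219 and 292 in the reported one, so passing it sets a gene little apart. Measured inside libraries, Clec4d had 1.31 reads per Mrc1 read in siSmyd5 against 0.876 in siCtl with KLA, and 1.65 against 0.846 with vehicle. Over all genes tested, the log2 ratio of siSmyd5 over siCtl had a Spearman correlation with length of −0.47 with KLA and −0.46 with vehicle (n = 7995 genes that share the libraries). Clec4d is 1330 bases long, Clec12a 2216, Mrc1 5288, and the median gene tested 2921. The ratio of Clec4d to Mrc1 inside libraries needs no scaling, but it sets a short gene against a long one and is open to this trend. Per read of Clec7a, 2271 bases long, Clec4d had 2.86 reads in siSmyd5 against 2.16 in siCtl with KLA. With vehicle it had 2.97 against 1.66. Set against the genes nearest in length, the averaged difference of Clec4d was log2 0.31 and that of Clec12a log2 0.60. How much of either difference belongs to length was not tested further.

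The other members did not pass the averaged test of the siSmyd5 label. Clec4n, with 29 reads against 34 in siCtl with KLA and 43 against 46 with vehicle, had ratios of 1.37 (0.803 to 2.31) and 1.51 (0.970 to 2.33). Clec7a had ratios of 1.02 (0.859 to 1.20) with KLA and 0.993 (0.844 to 1.17) with vehicle, and Mrc1 had 0.899 (0.806 to 1.002) and 0.908 (0.807 to 1.02). Their averaged effects were log2 0.53, 0.01 and −0.15 (adjusted p = 0.296, 0.990 and 0.736, edgeR). Clec4e and Clec5a had averaged effects of log2 0.15 and 0.13 (adjusted p = 0.769 and 0.861, edgeR). The median over the 7 members was log2 0.15, against 0.00 over all genes tested. By size no member was called under either agent, against 5.59% of genes with KLA and 8.02% with vehicle. These values depend on the labels. With the names of siCtl and siPhf2 exchanged, the KLA ratios moved to log2 0.93 for Clec7a, 0.62 for Mrc1 and 3.16 for Clec4n, the last over 0 reads. With vehicle Clec4e moved to log2 1.26. After the exchange Clec12a was the one member called by size.

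**Figure D4:**
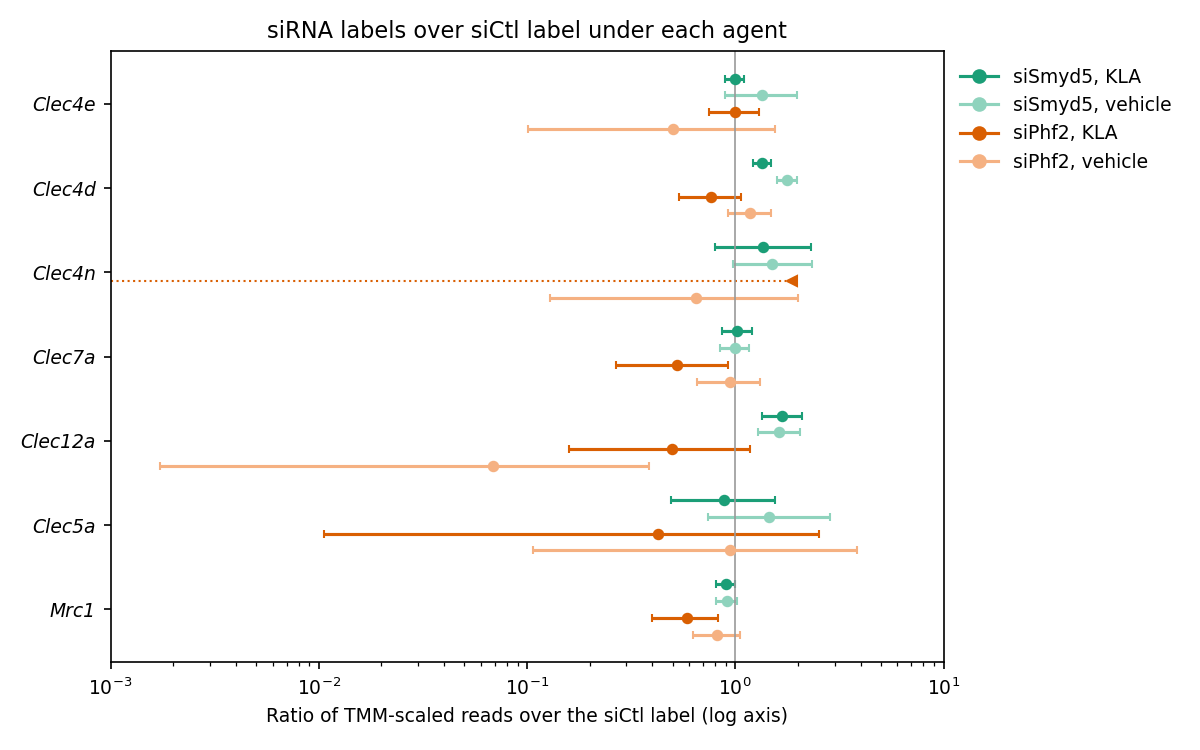
Ratio over the siCtl label for 7 members under each agent, on a log axis; points are ratios of 1 library over 1, bars exact conditional Poisson 95% intervals of counting, and the dotted line with an arrowhead marks an upper limit at 0 reads. Clec12a lies at 1.67 and 1.62 for siSmyd5, and at 0.496 with KLA and 0.0683 with vehicle for siPhf2.

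With the siPhf2 label Clec12a was again the one member past the averaged test, in the other direction and from very few reads. Phf2 is a histone demethylase, and as given above its own level does not bear out the label. Clec12a had 5 reads in the siPhf2-labelled KLA library against 164 in siCtl, levels of 36.1 and 72.8 CPM, a ratio of 0.496 (0.159 to 1.18). With KLA it did not stand apart, since Clec7a (0.524) and Mrc1 (0.584) had similar ratios and the median over all genes tested was log2 −0.34. With vehicle, where that median was log2 −0.10, Clec12a had 1 read against 145. These are levels of 4.06 and 59.5, a ratio of 0.0683 (0.00172 to 0.387). By size Clec12a was called lower with vehicle, as were 8.87% of genes, and not with KLA, where 7.24% were. Averaged over the agents it fell by 2.02 ± 0.55 SE on the log2 scale (adjusted p = 0.0192, edgeR, n = 2 libraries per siRNA), and 8.12% of genes were higher and 4.52% lower by the same test. Without the siPhf2-labelled vehicle library it was log2 −1.02 (adjusted p = 0.249), and without the siPhf2-labelled KLA library log2 −3.83 (adjusted p = 4.70e-04). Without the siCtl-labelled vehicle library or the siCtl-labelled KLA library it did not pass either (adjusted p = 0.189 and 0.0785), nor with DESeq2's Wald test (0.0623), limma-voom (0.0516) or limma on log2 values (0.0624). With the names of siCtl and siPhf2 exchanged the sign turns, at log2 2.02, and the siSmyd5 effect of Clec12a becomes log2 2.74 (adjusted p = 7.01e-04).

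The siPhf2-labelled libraries also differed from siCtl along transcript length and GC content and in other marker lists. The log2 ratio had a Spearman correlation with the GC content of the transcript of 0.19 with KLA and 0.19 with vehicle (n = 7870 genes that share the libraries), and Clec12a has a GC content of 41.0%, against a median of 50.1% over the genes tested. Set against the genes nearest in GC content, Clec12a was at log2 −0.09 with KLA, −2.97 with vehicle and −1.42 averaged. The correlation with length was 0.25 with KLA and 0.35 with vehicle (n = 7995 genes), and set against the genes nearest in length Clec12a was at log2 −0.46 with KLA, −3.20 with vehicle and −1.68 averaged. The summed neutrophil markers were 0 against 98.5 CPM in siCtl with KLA and 32.5 against 99.3 with vehicle. Most of this is Mmp8, with 0 reads against 202 and 3 against 206, while Clec12a is itself known from neutrophils and monocytes. S100a8 had 0 reads against 18 and 3 against 25, and the averaged differences were log2 −3.50 for Mmp8 and −0.28 for S100a8. S100a9, Ngp, Camp, Ltf, Elane, Mpo and Cxcr2 had 0 to 6 reads in every library, siCtl included. Fibroblast markers summed to 317 against 852 with KLA and 410.5 against 826 with vehicle, and the dendritic cell list, almost all Itgax, to 577 against 172 and 427 against 132. Their part in the Clec12a result was not tested. Inside each library, Clec12a had 0.417 reads per Clec7a read in siPhf2 (0.115 to 1.27) against 0.441 in siCtl (0.365 to 0.531) with KLA, and 0.0263 (0.000649 to 0.156) against 0.363 (0.298 to 0.441) with vehicle. The KLA pair overlaps and the vehicle pair does not.

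The other members under the siPhf2 label did not pass the averaged test. Clec7a had a ratio over siCtl of 0.524 (0.269 to 0.927) with KLA and 0.944 (0.658 to 1.32) with vehicle. Mrc1 had 0.584 (0.399 to 0.826) with KLA and 0.821 (0.628 to 1.06) with vehicle, and its averaged effect was log2 −0.50 ± 0.26 SE (adjusted p = 0.210, edgeR). Set against genes of like GC content, the averaged differences were log2 0.24 for Clec7a and −0.06 for Mrc1, and against genes of like length −0.06 for Clec7a and −0.72 for Mrc1. Without the siPhf2-labelled vehicle library Mrc1 passed, at log2 −0.77 (adjusted p = 0.0440). Clec4d had ratios of 0.767 (0.539 to 1.06) with KLA and 1.18 (0.923 to 1.49) with vehicle. Clec4n had 0 reads against 34 with KLA, which allows a level of up to 1.43 times that of siCtl, so no fall could be read from it. The median over the 7 members was log2 −0.50, against −0.13 over all genes tested.

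Clec4n, Clec4d and Clec4e are neighbours in the genome, and Clec12a and Clec7a lie in another lectin cluster. On mm9, Clec4n (chr6:123179861-123197042, plus strand), Clec4d (chr6:123212125-123225286, plus strand) and Clec4e (chr6:123231807-123239889, minus strand) follow each other with gaps of 15083 and 6521 bases. Clec4d and Clec4e run toward each other. Of these 3, the middle gene was the most abundant with vehicle and Clec4e alone rose with KLA, while the next lectin on the far side of Clec4n, Clec4b2, had 0 reads in all libraries. Clec12a (chr6:129300262-129315321, plus strand) and Clec7a (chr6:129411609-129422795, minus strand) lie 96288 bases apart with Clec12b and Clec1a, both at 0 reads, between them, and Clec1b and Clec9a at up to 10 and 2 reads. The scavenger receptor Olr1 (LOX-1), 12471 bases from Clec7a, had 110 reads (siSmyd5), 8 (siPhf2) and 238 (siCtl) with KLA, against 9, 0 and 8 with vehicle, and rose by log2 4.47 (adjusted p = 2.63e-09, edgeR). The activation antigen Cd69, 74875 bases from Clec12a, had 96, 5 and 65 reads with KLA, against 6, 0 and 3 with vehicle, and rose by log2 4.29 (adjusted p = 6.86e-08). Each of the 2 clusters thus held a gene that rose beside lectins that did not pass the test. Clec5a (chr6:40524897-40535804), Mrc1 (chr2:14151041-14253650), Clec10a (chr11:69980125-69984338) and Mgl2 (chr11:69943859-69951044) lie elsewhere, the last 2 separated by 29081 bases.

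Among 46 other genes with a C-type lectin domain, 13 passed the filter, 3 were higher and 1 lower with KLA (11.2% and 4.6% of all genes tested), with a median of log2 0.08 against −0.03 over all genes tested. Of all genes tested, 2.74% were higher and 3.65% lower under the siSmyd5 label, and 8.12% and 4.52% under the siPhf2 label. Counts below from the reported fit are to be read against these shares. Without both siPhf2-labelled libraries the background is larger, with 1061 genes higher and 1137 lower under the siSmyd5 label, against 219 and 292 in the reported fit. Besides Olr1 and Cd69, Ly75 (DEC-205, an endocytic receptor) rose by log2 1.12 (adjusted p = 2.29e-04, edgeR). Thbd (thrombomodulin, an anticoagulant receptor) fell by 2.52 on the log2 scale (adjusted p = 3.31e-04), with 1 read (siSmyd5), 1 (siPhf2) and 9 (siCtl) with KLA, against 11, 11 and 52 with vehicle. Under the siSmyd5 label 1 was higher, Cd69 (log2 1.27, adjusted p = 0.0244), and 1 lower, Thbd (log2 −1.65, adjusted p = 0.0444), against 1 higher and 4 lower without both siPhf2-labelled libraries. With the siPhf2 label 3 were higher and none of the 13 lower, and these were Clec2d (log2 4.20), Cd93 (1.28) and Ly75 (1.22), with adjusted p = 2.39e-06, 0.00319 and 0.00313. The close relatives Clec4a1, Clec4a2 and Clec4a3 had averaged KLA effects of log2 0.08, 0.06 and −0.28 (adjusted p = 0.909, 0.950 and 0.618, picked out after their values were seen).

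Of 27 genes that carry the signal of these receptors, 26 passed the filter, and 11 were higher and 2 lower with KLA (11.2% and 4.6% of all genes tested), with a median of log2 0.56 against −0.03 over all genes tested. The rises included 2 parts of the complex that links Syk to NF-kB, Malt1 (log2 3.53, adjusted p = 2.86e-10) and Bcl10 (1.35, 7.51e-05), and the NF-kB subunits Rel (3.11, 3.39e-09) and Relb (2.66, 4.71e-08), all from edgeR. The kinase Src (1.44, 2.02e-05) and the exchange factor Vav3 (1.43, 4.26e-05) rose too. Malt1 had 600 reads (siSmyd5), 146 (siPhf2) and 1031 (siCtl) with KLA, against 51, 18 and 117 with vehicle. Syk rose by log2 1.24 (adjusted p = 6.98e-05). The adaptors did not rise, with Fcer1g, through which Clec4e signals, at log2 0.22 (adjusted p = 0.576), and Card9, the partner of Bcl10, at 0.35 (adjusted p = 0.593). Tyrobp, the adaptor of Clec5a, fell by 0.61 on the log2 scale and just passed (adjusted p = 0.0493), with 379, 12 and 450 reads with KLA, against 617, 51 and 641 with vehicle. Syk, Fcer1g, Card9 and Tyrobp were picked out after their values were seen. Under the siSmyd5 label 1 of the 26 was lower (3.65% of all genes tested), Nfatc1 (log2 −1.06, adjusted p = 0.0361), with a median of log2 −0.07. Without both siPhf2-labelled libraries 2 were higher and 5 lower, in a fit that called 1061 genes higher and 1137 lower. With the siPhf2 label 4 were higher (8.12% of all genes tested), among them Syk (log2 1.55, adjusted p = 2.04e-04), and 1 lower (4.52%), Bcl10 (−2.18, 0.0122).

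**Figure D5:**
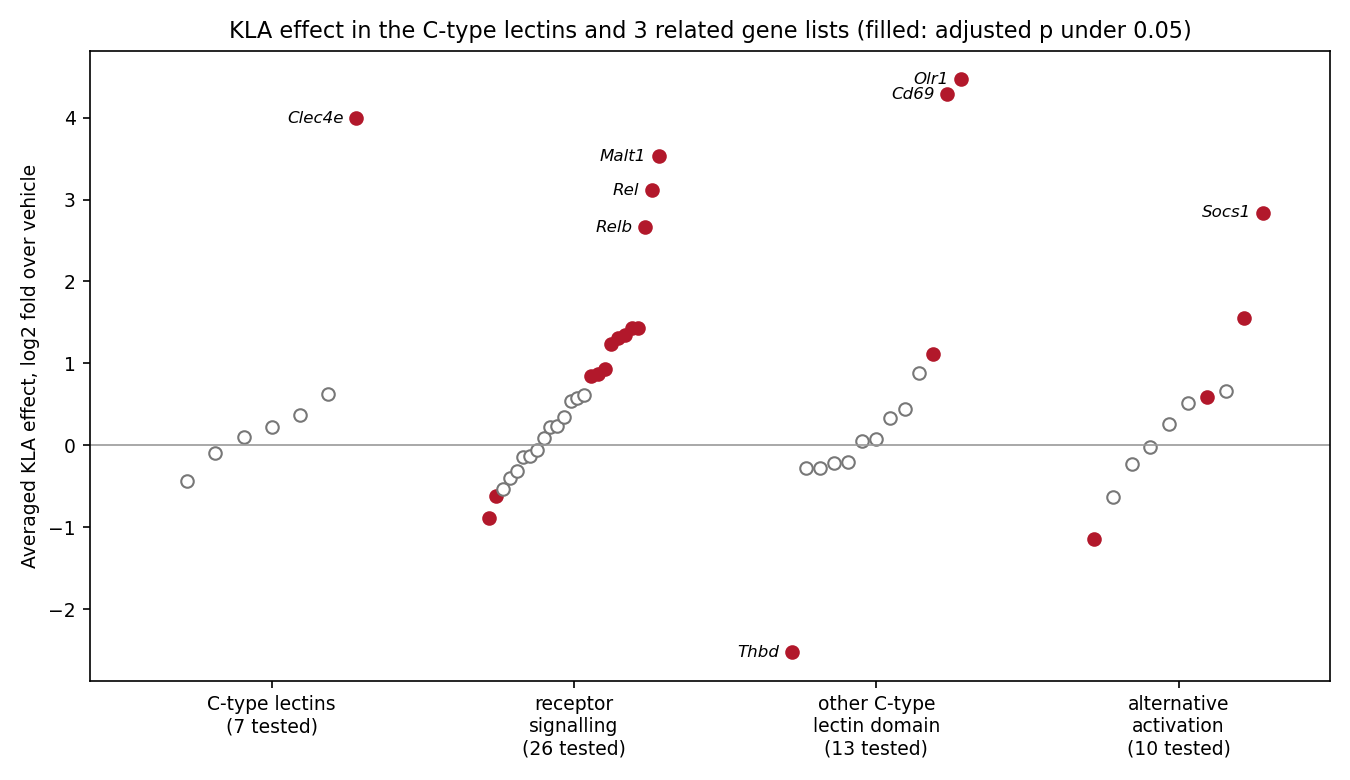
Averaged KLA effect, as a log2 fold over vehicle, of each tested gene of the lectins described here and of 3 related lists; every point is a gene, filled where the adjusted p was under 0.05, and genes beyond a log2 fold of 2 are named. Clec4e lies at 3.99 above the other 6 lectins, which lie between −0.43 and 0.63.

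Of 18 other markers of alternative activation, 10 passed the filter, 3 were higher and 1 lower with KLA (11.2% and 4.6% of all genes tested), with a median of log2 0.39 against −0.03. Socs1 (an inhibitor of cytokine signalling) rose by log2 2.84, the transglutaminase Tgm2 by 1.56 and the receptor chain Il4ra by 0.59, while the lipid sensor Pparg fell by 1.15 on the log2 scale (adjusted p = 7.31e-04, 1.28e-05, 0.0370 and 3.46e-04, edgeR). Arg1 and Chi3l3, which like Mrc1 are classical markers of this state and were picked out after their values were seen, had averaged effects of log2 −0.23 and −0.02 (adjusted p = 0.570 and 0.983). Under the siSmyd5 label the lowest adjusted p of the 10 was 0.113 (Egr2, log2 −0.67, edgeR). Without both siPhf2-labelled libraries 2 were lower, in a fit that called 1137 genes lower. With the siPhf2 label Pparg fell by 1.64 on the log2 scale (adjusted p = 0.0201), while Egr2 (1.14) and Tgm2 (0.94) rose (adjusted p = 0.0355 and 0.0203), against 4.52% lower and 8.12% higher over all genes tested.

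Across the 6 libraries, log2 levels of Clec4e were correlated with those of 3607 genes averaging 50 reads or more. The highest Pearson r were those of Nfe2l2 (0.994), the oxidative-stress factor known as Nrf2, the shedding protease Adam17 (0.992) and the kinase Mapkapk2 (0.992). Mapkapk2 had 574 reads (siSmyd5), 76 (siPhf2) and 949 (siCtl) with KLA, against 139, 18 and 212 with vehicle. Nfe2l2 had 596, 57 and 983 with KLA, against 360, 57 and 567 with vehicle. Adam17 had 393, 40 and 586, against 225, 32 and 338. The correlation reads the shape of a pattern and not its size, and each rise was smaller than that of Clec4e. For Clec4n, the member with the lowest averaged KLA effect, the highest r were those of Dbi (0.991), Fcgr4 (0.990) and Lgmn (0.988). These are descriptions over 6 libraries that share depth and GC differences, and the siPhf2-labelled libraries set much of the Clec4n pattern, with 0 and 3 reads.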

How the data were processed

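Poly(A) RNA of 6 libraries was sequenced on a Genome Analyzer 2 without molecular identifiers, per the labels' protocols, so intervals cover counting error only. Per the file headers, the deposited values are a signal: tags of each RefSeq transcript after scaling every library to 10000000 tags; HOMER and the build mm9 are named per the submitters' processing notes, while for the aligner, strand and multiply matching reads the setting is not given in the sources used. Whole reads were recovered for 100% of values within a tolerance of 0.02. The siSmyd5 columns used their own header totals, and the siCtl and siPhf2 columns each other's. The table held 29619 transcripts, of which 2 had no symbol and were left out.

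The members, lists, tests and the rule for named genes were chosen with earlier results of these data known. All 9 lectins are named, with Smyd5, Phf2 and Rn45s, up to 6 list genes with the largest KLA effect past the threshold (3 for each siRNA) and the 3 genes most alike in pattern. The values of 1 list gene that this rule names are not reported here. Recovered reads were fitted with siRNA and agent as additive terms in edgeR 4.0.16, run in R 4.3.3 (its quasi-likelihood test with TMM scaling, 2-sided, threshold 0.05 on Benjamini-Hochberg adjusted p over 7995 genes, 2 residual degrees of freedom). The deposited unit is a scaled signal, and the count model was used because reads could be recovered; limma 3.58.1 on log2 values (pseudocount 15.2 CPM), limma-voom and DESeq2 1.42.0 were alternatives. Unequal KLA responses of the arms add to the residual. Contrasts of 1 library over 1 carry no p-value; ratios have exact conditional Poisson 95% intervals and no reads added, and a count of 0 was bounded by 3 reads per library. The fits and intervals were tested on simulated data. GC content was known for 98.4% of the genes tested.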

Additional observations from a re-analysis of the deposited data

How the results depend on the processing

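The KLA effect of Clec4e passed in the reported fit and all 16 alternatives to it, at log2 3.52 to 4.34 (adjusted p from 4.80e-54 to 8.25e-04); it was the one member past the threshold in each, except that Mrc1 joined it (2 members) without either or both siPhf2-labelled libraries. Leaving out 1 library at a time moved the genes called for KLA between 435 and 2052 (1 to 2 members), for siPhf2 between 211 and 1459 (0 to 1) and for siSmyd5 between 1 and 2210 (0 to 2). Such fits have 1 residual degree of freedom. Those without a siPhf2-labelled library read the KLA and siSmyd5 effects from the same siSmyd5 and siCtl libraries. Against 1261 genes called for KLA in the reported fit, other settings called 685 (minimum mean of 50 reads), 629 (DESeq2), 404 (limma on log2 values) and 2112 (without both siPhf2-labelled libraries).

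For the siPhf2 label, against 1010 genes and 1 member, scaling by library total gave 7385 genes and 7 members, because Rn45s fills those totals: it moves the median log2 ratio of all genes over siCtl to −2.29 with KLA and −1.97 with vehicle. The total without Rn45s gave 1710 genes and 3 members (Clec12a, Clec7a and Mrc1), DESeq2 426, limma on log2 values 642, and these 2 and limma-voom each 0 members (1485 genes at an unadjusted p under 0.05 with DESeq2 and 2507 with limma). With names exchanged Clec12a was at log2 2.02 averaged and 3.46 with vehicle, the sign turning by construction. By size, library totals gave 6763 genes and 7 members with KLA and 6664 genes and 7 members with vehicle, and totals without Rn45s 3 members with KLA. Under the siPhf2 label the KLA response held 2 members with library totals (Clec4e and Clec7a) and 2 with DESeq2 factors (Clec4e and Clec12a).

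For siSmyd5, against 511 genes and 1 member, library totals gave 222 genes, a minimum mean of 50 reads 101, limma-voom 17, DESeq2 2 and limma on log2 values 0 (490 at an unadjusted p under 0.05, 481 with DESeq2), each with 0 members, as did totals without Rn45s and the longest transcript. Exchanged names gave 2030 genes, and leaving out both siPhf2-labelled libraries 2198 genes and 2 members (Clec12a and Clec4d), with 7, 5 and 2 genes of the signalling, other lectin and alternative activation lists. By size, the length correction gave 266 genes with KLA and 407 with vehicle, and exchanged names 1672 and 2270, each with 1 member, Clec12a. The cause of these shifts was not tested. Directions of members past the threshold in neither fit were not compared. Low reads of the siPhf2-labelled libraries limit what can be read of Clec4n, Clec5a, Clec10a and Mgl2 there. No paired analysis was possible because each group is 1 library and the siRNA is already a term of the fit.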
